A study of Mus musculus with 12 samples.

Results

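The stage dependence of the antigen effect asks how the change from double-positive to CD4 single-positive thymocytes differed between mice with and without the antigen of their T cell receptor. It was measured as an interaction on the log2 scale, that is, as the antigen difference (TCR:HEL less TCR) of single-positive cells less that of double-positive cells, which equals the stage change in TCR:HEL mice minus that in TCR mice. All 12 arrays of the series and all 22511 probe sets that remained of 22575 after 64 control probe sets were set aside entered the comparison. No measured value was used to choose them. Every mouse was of the B10 strain and 6 to 8 weeks old, carried a transgenic T cell receptor, and was untreated. TCR mice carried the receptor alone, and TCR:HEL mice also carried the transgene HEL. From each kind of mouse there were 3 arrays of CD4 single-positive (SP) cells and 3 of double-positive (DP) cells, which the labels call pre-selection. The labels assign TCR SP cells to positive selection and TCR:HEL SP cells to negative selection. The promoters of the transgenes, the thymic cells that make the antigen and the pooling of mice are not given in the sources used here. By the titles both kinds of DP cell carried the receptor, so that no group had a natural receptor repertoire. The series' design text, however, calls the comparison mice only B10 and names no receptor transgene for them. The groups here follow the titles, and the genotype of the TCR mice rests on them.

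Double-positive thymocytes carry both CD4 and CD8 and arise from a burst of division. Those whose receptor binds self-peptide and MHC weakly are positively selected, lose one coreceptor and become single-positive. Strong binding induces genes of the Nr4a and Egr families, Cd69 and feedback phosphatases, and can lead to death by apoptosis or to the regulatory T cell fate.

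Values were MAS5 signals, which are intensities on a linear scale, taken as log2(signal + 16). Fold changes of dim genes come out smaller on this scale than they are. The median signal of an array lay between 63.0 and 81.3. The record files placed the arrays in 3 hybridization periods, and no period held all 4 groups. Period 1 held TCR SP replicate 1 and TCR:HEL SP replicate 1. Period 3 held TCR SP replicate 3, TCR:HEL SP replicates 2 and 3 and TCR:HEL DP replicate 3, and period 2 held the others. The 5′ to 3′ signal ratio of the Gapdh control, a measure of RNA integrity and amplification, ranged from 0.0379 to 0.453 and was lowest on both arrays of period 1 and on TCR DP replicate 1. The sorts were checked with Cd8a, which codes for a chain of the CD8 coreceptor and read 5188 to 8034 on DP arrays and 516 to 1558 on SP arrays. Cd4, Foxp3, Nr4a1, Egr2, Bcl2l11, Rag1 and Ccr7 were not analysed here, since no probe set used carried their symbol.

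In single tests the interaction fell short of the threshold for every probe set. Limma called 0 of 22511 (0%) at an adjusted p under 0.05, and the lowest adjusted p was 0.110. At an unadjusted p under 0.05 there were 1036 probe sets (4.6%), where 5% of 22511 is 1126, with 654 higher (2.91%) and 382 lower (1.7%). Values named below are therefore estimates of single genes that did not pass. The antigen difference itself was called for 26 probe sets in SP cells (0.115%), 18 higher (0.08%) and 8 lower (0.0355%) with antigen, and for 0 in DP cells (0%), where the lowest adjusted p was 0.904. The 26 calls in SP cells became 0 without the arrays of period 1 and 0 without the 3 arrays of lowest Gapdh ratio. The antigen groups did not overlap for 2254 probe sets in SP cells (10%) and 1847 in DP cells (8.2%). They were parted in opposite directions in the 2 stages for 88 (0.391%), 61 of them higher in SP and lower in DP cells (0.271%) and 27 the reverse (0.12%). Between groups of 3 arrays that do not differ, a lack of overlap is also met in about 10% of probe sets. Counts and statements of overlap here are therefore a description and not a test. Among the 1036 probe sets, 695 (67.1%) had the larger antigen difference in SP cells, against 12531 of 22511 (55.7%) of all probe sets.

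The stage change was called in each kind of mouse. The estimates of these comparisons share no arrays, but their calls rest on a shared estimate of spread from all arrays. Leaving out a TCR array thus moved the TCR:HEL calls, from 253 to between 208 (without TCR DP replicate 1) and 269 (without TCR SP replicate 1). The calls are therefore not independent, and their overlap is a description. In TCR mice 405 probe sets changed (1.8%), 126 higher (0.56%) and 279 lower (1.24%) in SP cells. In TCR:HEL mice 253 changed (1.12%), 121 higher (0.538%) and 132 lower (0.586%). Of the probe sets lower in SP cells 98 were called in both, which is 35.1% of the TCR list and 74.2% of the TCR:HEL list. Of those higher, 47 were shared, which is 37.3% and 38.8%. None was called in opposite directions. The 279 probe sets that fell in TCR mice had a median stage change of -1.99 there and of -1.25 in TCR:HEL mice. A list called in one kind of mouse tends to show a smaller median in the other, and the 132 that fell in TCR:HEL mice had medians of -1.81 there and -1.98 in TCR mice. For the 126 that rose in TCR mice the medians were 1.85 and 1.23, and for the 121 that rose in TCR:HEL mice they were 2.00 there and 1.10 in TCR mice.

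**Figure D1:**
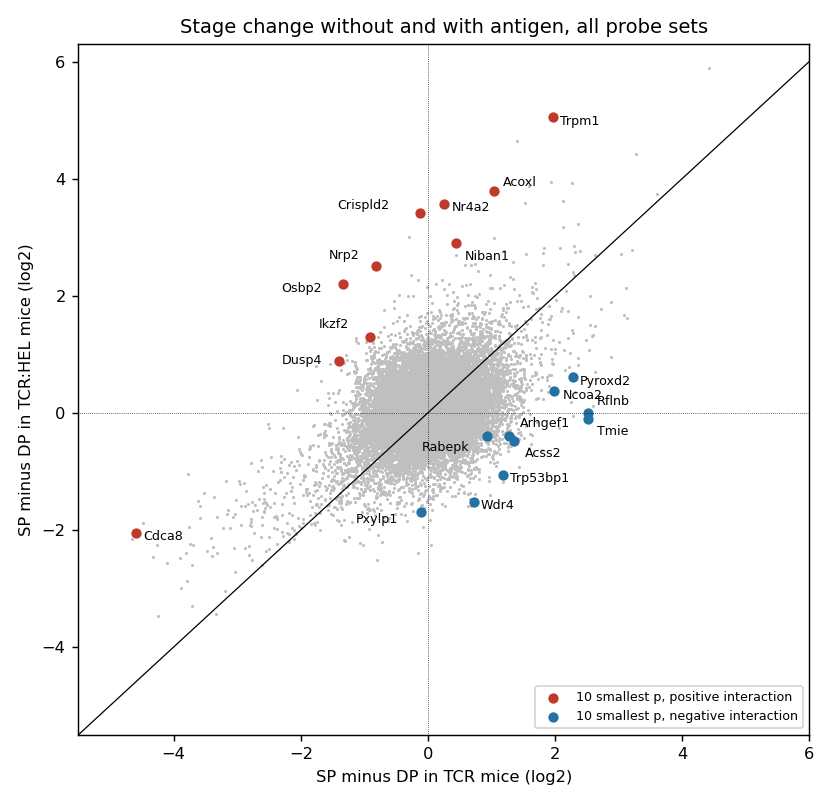
Stage change, SP minus DP, in TCR mice (x axis, log2) against that in TCR:HEL mice (y axis, log2) for 22511 probe sets (grey). Points on the solid line have no interaction, and the 10 genes with the smallest p in each direction are coloured and named, with Osbp2 and Nrp2 in the upper left and Cdca8 above the line among the genes lower in SP cells.

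The stage changes were set against the interaction through the mean stage change of both kinds of mouse, whose estimate in this balanced layout is uncorrelated with that of the interaction where the groups vary alike. It was called for 871 probe sets (3.87%), 508 lower (2.26%) and 363 higher (1.61%) in SP cells. Of the 508 that fell, 369 (72.6%) had a positive interaction, so that the fall was smaller in TCR:HEL mice, against 53.1% of all probe sets with a positive interaction. Their median change was -1.41 in TCR and -1.17 in TCR:HEL mice. Of the 363 that rose, 190 (52.3%) had a smaller rise in TCR:HEL mice, against 46.9% of all probe sets with a negative interaction, and the medians were 1.22 and 1.24. Over the alternatives the first share lay between 66.6% and 77.5% and the second between 41.5% and 58.6%, so no direction is given for the rises. Among the 508, 69 belonged to the listed genes of mitosis and DNA replication, of which 59 (85.5%) had a positive interaction. Of the other 380 with 1 gene symbol it was 270 (71.1%).

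**Figure D2:**
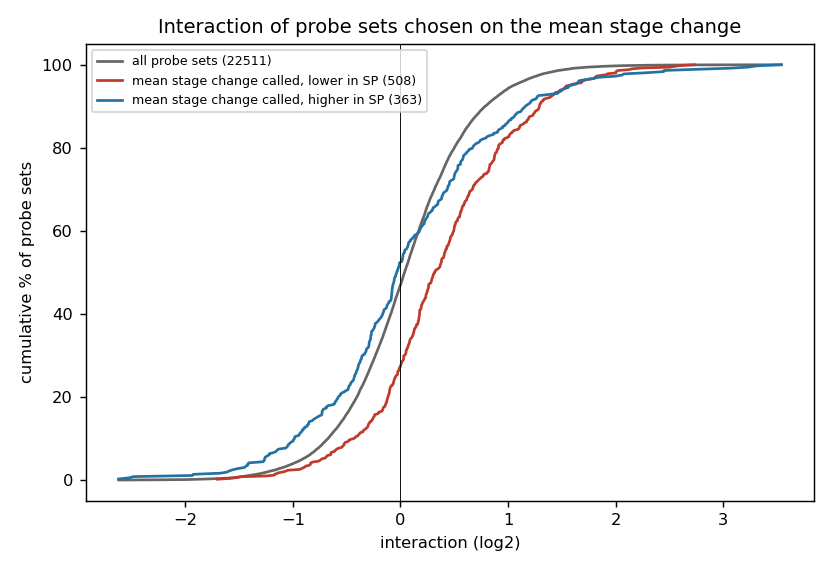
Cumulative share of probe sets (y axis, %) by interaction (x axis, log2), for all 22511 probe sets and for those whose mean stage change was called lower (508) or higher (363) in SP cells. The curve of the 508 lies to the right of the others over the middle of the range and meets them towards the ends, with 72.6% above 0 against 53.1% of all.

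Genes of mitosis had the largest median interaction among the lists of 5 or more measured genes, although at a pseudocount of 64 their median was 0.43 and that of the receptors and activation markers described below was 0.56. Of 103 listed genes 48 were measured, 36 with a positive interaction, and the median interaction was 0.71 against 0.03 over 9607 genes, of which 5071 (52.8%) were positive. The median stage change of the 48 was -1.45 in TCR and -1.28 in TCR:HEL mice. These medians lie closer together than the median interaction, which is taken gene by gene. At an unadjusted p under 0.05, 17 of the 48 were higher and 0 lower, against 287 higher and 163 lower of the 9607. In TCR mice 23 of the 48 fell from DP to SP cells and 0 rose, against 201 and 74 of the 9607. In TCR:HEL mice 13 of the 48 fell and 0 rose, against 93 and 69 of the 9607. The counts of the lists below are to be read beside these counts over all genes. Over the 48 genes the antigen difference had a median of 0.81 in SP cells and of 0.00 in DP cells. Their summed signal was 51055 to 53788 on TCR DP arrays and 47322 to 52999 on TCR:HEL DP arrays, and the groups overlapped. It was 5205 to 8534 on TCR SP arrays and 12362 to 20004 on TCR:HEL SP arrays, without overlap. Whether fewer cells divided or each held less of these RNAs cannot be told apart in bulk samples. With the SP pair of period 1 and the DP arrays of period 2 the median interaction of the list was 0.65, and with the SP arrays of period 3 it was 0.97.

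Cdca8, which codes for Borealin of the chromosomal passenger complex, read 7539, 5865 and 5355 on the TCR DP arrays and 339, 236 and 172 on the TCR SP arrays. With antigen it read 5804, 5455 and 6489 on the DP arrays and 1319, 2085 and 1019 on the SP arrays. The DP groups overlapped, and every TCR:HEL SP array was above every TCR SP array. It fell by 4.60 on the log2 scale in TCR and by 2.05 in TCR:HEL mice, with an interaction of 2.55 (SE 0.43, 95% interval 1.62 to 3.47, adjusted p = 0.146). Its other probe sets gave 2.60 and 2.15. Bub1b, a kinase of the spindle checkpoint, read 8209, 6412 and 7672 on the TCR DP arrays and 546, 415 and 90.0 on the TCR SP arrays. The TCR:HEL arrays read 6208, 7279 and 4405 in DP and 1622, 1927 and 704 in SP cells, with no overlap between the SP groups. Its interaction was 2.50 (SE 0.73, adjusted p = 0.904), and a dim probe set of Bub1b gave 0.49. Sgo1, shugoshin, which protects cohesion at centromeres, read 22.8, 62.2 and 17.8 on TCR SP and 136, 215 and 129.6 on TCR:HEL SP arrays, against 443, 532 and 434 and 637, 438 and 331 on the DP arrays. Its interaction was 1.93 (SE 0.49). Cenpe, a kinesin motor of the kinetochore, fell by 2.50 in TCR mice, while its change in TCR:HEL mice was -0.25 and did not pass. Its signals were 705, 502 and 626 and 76.8, 139 and 76.9 on the TCR DP and SP arrays, and 1252, 482 and 353 and 558, 648 and 345 on the TCR:HEL DP and SP arrays. The TCR groups were parted and the TCR:HEL groups overlapped. Esco2, an acetyltransferase of cohesin, had an interaction of 2.73, and Cdkn3, a phosphatase of cyclin-dependent kinases, 1.81. Members with a negative interaction included the histone variant gene Cenpa, the kinase genes Ttk and Aurka and Bub3, so the list was not uniform.

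The promoters of Cdca8, Bub1b and Sgo1, taken from RefSeq (GRCm38.p6), are shown because genes of mitosis fell together with stage and are known to share CCAAT boxes and cell cycle homology regions. Capitals mark 3 motifs on either strand. The first is CCAAT, which the opposite strand shows as ATTGG. The next is TTTGAA, which the opposite strand shows as TTCAAA. The last is TTCGAA, which reads the same on both. Cdca8 lies on the minus strand at chr4:124936868-124937167, Bub1b on the plus strand at chr2:118597961-118598260 and Sgo1 on the minus strand at chr17:53689266-53689565.
Cdca8: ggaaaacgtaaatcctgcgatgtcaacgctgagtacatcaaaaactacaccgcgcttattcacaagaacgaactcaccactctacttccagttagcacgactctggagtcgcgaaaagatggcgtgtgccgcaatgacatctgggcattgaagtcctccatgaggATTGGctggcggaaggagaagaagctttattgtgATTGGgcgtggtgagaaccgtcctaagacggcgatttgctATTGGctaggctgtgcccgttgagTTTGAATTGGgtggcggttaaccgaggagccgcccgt
Bub1b: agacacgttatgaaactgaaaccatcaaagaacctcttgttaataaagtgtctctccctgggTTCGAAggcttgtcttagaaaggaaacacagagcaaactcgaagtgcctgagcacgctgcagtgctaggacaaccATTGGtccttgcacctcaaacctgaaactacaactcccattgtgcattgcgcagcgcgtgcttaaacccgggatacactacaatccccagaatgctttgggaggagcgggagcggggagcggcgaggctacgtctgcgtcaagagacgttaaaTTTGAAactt
Sgo1: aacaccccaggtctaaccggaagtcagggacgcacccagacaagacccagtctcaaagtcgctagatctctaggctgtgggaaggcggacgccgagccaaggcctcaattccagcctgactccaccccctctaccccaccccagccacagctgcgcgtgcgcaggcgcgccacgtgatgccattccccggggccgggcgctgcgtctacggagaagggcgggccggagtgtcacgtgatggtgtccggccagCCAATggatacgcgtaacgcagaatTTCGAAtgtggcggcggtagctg
Cdca8 held 4 matches of CCAAT and 1 of TTTGAA, which overlaps the last ATTGG. Bub1b held 1 of each motif, and Sgo1 held 1 of CCAAT and 1 of TTCGAA. Of 39 measured mitosis genes with a promoter in the table, 30 (76.9%) held CCAAT, against 41.7% of the 7612 measured genes with a promoter. TTTGAA was held by 25 (64.1%) against 15.7%, and TTCGAA by 4 (10.3%) against 2.19%. CCAAT together with TTTGAA or TTCGAA was held by 21 (53.8%) against 7.11%. A match describes these letters in this window and is not evidence of binding.

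Genes of DNA replication shifted less. Of 95 listed genes 47 were measured, 32 with a positive interaction, and 5 were higher and 0 lower at an unadjusted p under 0.05. The median interaction was 0.15 (0.14 to 0.28 with 1 array left out and 0.099 to 0.35 over all alternatives). In TCR mice 20 fell and in TCR:HEL mice 12 fell, against 201 and 93 of all 9607 genes. Clspn, an adaptor of the replication checkpoint, read 1089.9, 1199.7 and 1626 on TCR DP and 115, 152 and 154 on TCR SP arrays. With antigen present it read 1265, 1369.6 and 1315 on DP and 285, 552 and 325 on SP arrays. The DP groups overlapped and the SP groups did not, and the interaction was 1.29 (SE 0.37). Gins2, a part of the replicative helicase, had 2.01 and the helicase Pif1 2.00, with 1.2 and 0.18 on its other probe sets.

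Genes of the double-positive stage had a median interaction of 0.42 (0.25 to 0.56 with 1 array left out and 0.19 without the 3 arrays of lowest Gapdh ratio). Of 18 measured members 12 were positive and 1 was higher at an unadjusted p under 0.05, namely Cd8a. Cd8a fell in both kinds of mouse, by 3.47 in TCR and 2.36 in TCR:HEL mice. Its signals were 6684, 8034 and 7217 on TCR DP and 5531, 5188 and 6118 on TCR:HEL DP arrays, and 731, 705 and 516 on TCR SP and 986, 1558 and 809.8 on TCR:HEL SP arrays. Every TCR:HEL array was thus lower in DP cells and higher in SP cells than every TCR array. The interaction was 1.11 (SE 0.39, adjusted p = 0.999), and other probe sets of Cd8a gave 1.41 and 0.41. The 4 measured of 11 markers of CD8 single-positive cells, Cd8a included, had a median interaction of 0.78, 3 of them positive, with Il18rap at 1.58, Itgae at 0.45 and Runx3 at -0.56, which was -0.83 to -0.24 with 1 array left out and -0.12 without the 3 arrays of lowest Gapdh ratio. None of the 4 was at 0 in any group, although no detection calls were used to tell low signal from background. Their summed signal was 1546 to 2534 on TCR SP and 1698 to 2950 on TCR:HEL SP arrays, and the groups overlapped. The part of DP or CD8 cells in the SP sorts in the blunted falls was not tested.

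Among single genes, 342 probe sets were called in TCR mice and changed the same way by less in TCR:HEL mice (blunted), of which 119 had an unadjusted interaction p under 0.05. Another 146 were called in TCR:HEL mice and changed the same way by less in TCR mice (strengthened), 55 of them under 0.05. A further 25 were called in one and had the opposite sign in the other (reversed), all 25 under 0.05. The calls that define these classes use the same arrays as the interaction, so their counts are a description.

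The reversed genes were led by Osbp2, of the oxysterol-binding protein family, which had the smallest p of all. It read 96.6, 53.3 and 128 on TCR DP and 33.3, 22.1 and 20.8 on TCR SP arrays. In TCR:HEL mice it read 36.1, 26.1 and 26.9 on DP and 223, 187 and 169.6 on SP arrays. The SP signal lay below the DP signal on all TCR arrays and above it on all TCR:HEL arrays. The stage change was -1.34 in TCR mice, which did not pass, and it rose by 2.19 in TCR:HEL mice. The interaction was 3.53 (SE 0.50, 95% interval 2.47 to 4.60, adjusted p = 0.110), and with the filter on 3 arrays or without the trend it was called (adjusted p = 0.0487 and 0.0319, with a range over the alternatives of 0.0319 to 0.729). A second probe set, above the array median on no array, gave 0.10.

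Dusp4, a nuclear phosphatase that dampens MAP kinase signalling, was also reversed. It read 439, 443 and 889 on TCR DP and 228, 218 and 167 on TCR SP arrays, and 729, 845 and 875 on TCR:HEL DP and 1567, 1773 and 1268 on TCR:HEL SP arrays. SP arrays were all lower than DP arrays in TCR mice and all higher in TCR:HEL mice. It fell by 1.39 in TCR mice, and its change of 0.89 in TCR:HEL mice did not pass. The interaction was 2.28 (SE 0.39, adjusted p = 0.146). Ikzf2, which codes for the transcription factor Helios, read 2266, 2248 and 2040.3 on TCR DP and 887, 1327 and 1291 on TCR SP arrays. In TCR:HEL mice it read 3307, 2367 and 1988 on DP and 7052, 5335 and 6204 on SP arrays. These groups were parted in opposite directions in the same way. Its interaction was 2.21 (SE 0.38, adjusted p = 0.146), and a second probe set gave 3.30. Nrp2, a coreceptor for semaphorins and vascular growth factors, read 15, 6.66 and 17.1 on TCR SP and 296, 139 and 111 on TCR:HEL SP arrays, against 46.0, 30.1 and 28.9 and 21.2, 16.4 and 11.7 on the DP arrays. Its interaction was 3.33 (SE 0.55), while its other probe sets gave 0.63 and -0.07. Stage changes that were without overlap and opposite in TCR and TCR:HEL mice occurred in 87 probe sets (0.386%), 62 lower in TCR and higher in TCR:HEL mice (0.275%) and 25 the reverse (0.111%). Partings of this kind also occur between groups of 3 arrays that do not differ.

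In the other direction Arhgef1, a guanine nucleotide exchange factor of lymphocytes, read 390.1, 226 and 322 on TCR DP and 549.6, 759 and 1051 on TCR SP arrays. In TCR:HEL mice it read 434, 463 and 442 on DP and 324, 344 and 342 on SP arrays. It rose by 1.27 in TCR mice, where the groups were parted, and had the lower SP signal on every array of TCR:HEL mice (change -0.39, not called). The interaction was -1.66 (SE 0.37). Tmie, known for mechanotransduction in hair cells of the inner ear, rose by 2.52 in TCR mice, with signals of 196, 133 and 116 on DP and 1007, 585 and 1261 on SP arrays. The corresponding TCR:HEL signals were 153, 116 and 48.5 and 37.3, 128 and 137, and the groups overlapped. The interaction was -2.62 (SE 0.64), and a dim probe set gave -2.32 and another 0.34.

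**Figure D3:**
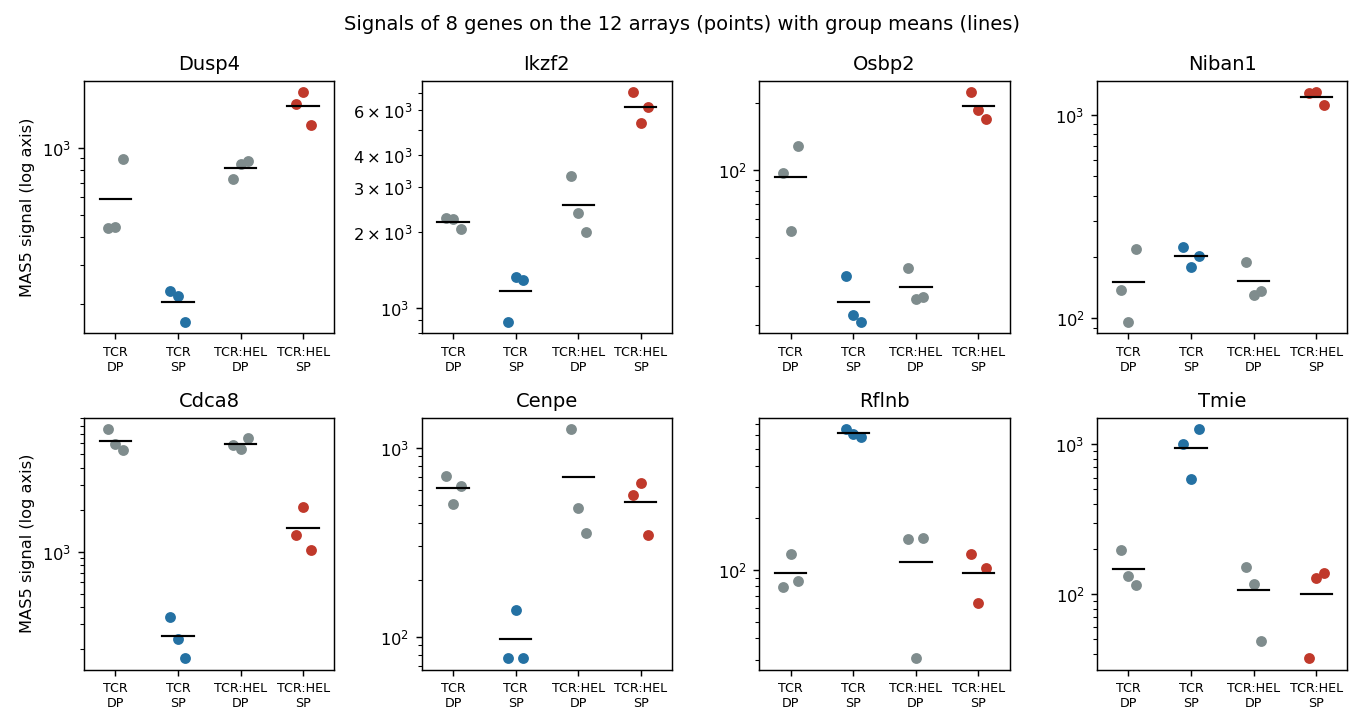
MAS5 signal on each of the 12 arrays (points, log y axis) with the group mean (line) for 8 genes in TCR DP, TCR SP, TCR:HEL DP and TCR:HEL SP cells. Dusp4, Ikzf2 and Osbp2 are lower in SP than in DP cells of TCR mice and higher in TCR:HEL mice, Cdca8 is lower in SP cells of both, and the rises of Rflnb and Tmie are seen in TCR mice.

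Strengthened rises were led by Niban1, a gene induced by cell stress. It read 138, 96.5 and 218 on TCR DP, 225, 179 and 202 on TCR SP and 189.6, 130.3 and 136 on TCR:HEL DP arrays, which overlapped, and 1269, 1283 and 1109.7 on TCR:HEL SP arrays, all far above. It rose by 2.89 in TCR:HEL mice, against 0.44 in TCR mice, and the interaction was 2.45 (SE 0.39, adjusted p = 0.146). Trpm1, a cation channel known from retina and melanocytes, read 50.5, 269 and 146 on TCR SP and 1409.6, 1554 and 1016 on TCR:HEL SP arrays, and 15.2 to 30.7 on the DP arrays. It rose in both kinds of mouse, by 1.97 and 5.05, with an interaction of 3.08 (SE 0.61, adjusted p = 0.403), while a second, dim probe set gave -0.71. Crispld2, a secreted protein, read 934, 542 and 641 on the TCR:HEL SP arrays and 26.7 to 124 on the others, and its sign in TCR mice placed it among the reversed. Its interaction was 3.54 (SE 0.61, adjusted p = 0.146), other probe sets gave 1.66 and 1.25, and without TCR:HEL DP replicate 3, which read 124, it was called at 4.09 (adjusted p = 0.0433, with a range over the alternatives of 0.0433 to 0.776). Arhgap20, a GTPase-activating protein, read 658, 541 and 639 on TCR:HEL SP and 124, 196 and 76.6 on TCR SP arrays, with an interaction of 2.06 (SE 0.51). Stx11, a syntaxin that human cytotoxic lymphocytes need to release granules, had 1.56, and Acoxl, related to acyl-CoA oxidases, 2.75. For Acoxl the antigen difference was -1.73 in DP and 1.02 in SP cells, neither called. Its TCR:HEL DP arrays read only 8.69 to 15.4.

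Transcription factors induced by receptor signals had a median interaction of 0.56 (0.36 without TCR DP replicate 3), with 10 of 13 measured members positive, 4 higher and 0 lower at an unadjusted p under 0.05. The orphan nuclear receptor Nr4a3 rose in both kinds of mouse, by 4.42 in TCR and 5.88 in TCR:HEL mice. Its signals were 1142, 865 and 1284 on TCR SP and 6865, 4549 and 3315 on TCR:HEL SP arrays, against 20.7 to 142 on the DP arrays. The SP groups did not overlap, and the interaction was 1.46 (SE 0.61, adjusted p = 0.999). Its relative Nr4a2 gave 3.31 on its leading probe set, which read 815, 219 and 365 on TCR:HEL SP arrays and 6.99 to 46.0 on the others, and 0.68, 0.68 and -0.82 on the remaining ones. Fosl2, of the AP-1 family, had 2.28, and the HMG-box factor Tox2 1.82, with -0.50 on a probe set above the array median on no array. Egr3, which rose by 2.30 in TCR and 2.86 in TCR:HEL mice, had an interaction of 0.56 with a 95% interval of -0.63 to 1.75, and of 0.21 to 0.90 with 1 array left out.

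All 6 measured costimulatory and inhibitory receptors and activation markers had a positive interaction, with a median of 0.61, and 2 were higher at an unadjusted p under 0.05. Cd69, which holds activated cells in the thymus, read 628, 1214 and 826 on TCR DP and 946, 1365 and 2036 on TCR SP arrays. The TCR:HEL arrays read 538, 790.0 and 369 for DP and 3727, 2606 and 3284 for SP cells. The TCR groups overlapped and the TCR:HEL groups did not. It rose by 2.52 in TCR:HEL mice, and the interaction was 1.84 (SE 0.48, adjusted p = 0.885). Cd160, a receptor for the ligand HVEM, had 1.79 at signals of 7.04 to 98.2. The costimulator Icos (0.43) and the inhibitory receptor Btla (0.58) rose with stage in both kinds of mouse. Among regulatory T cell genes the median interaction was 0.39 (0.15 to 0.43 with 1 array left out), with 10 of 14 positive, and Niban1, Ikzf2 and Arhgap20 were the 3 under an unadjusted p of 0.05. The median of that list was 0.04 with the SP pair of period 1 and 0.63 with the SP arrays of period 3.

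Blunted rises were found in the list of egress and late single-positive genes, whose median interaction was -0.21 (-0.41 to -0.07 with 1 array left out), with 8 of 23 measured members positive, 2 higher and 6 lower at an unadjusted p under 0.05. In TCR mice 8 rose and in TCR:HEL mice 4 rose, against 74 and 69 of all 9607 genes. Gimap7, a GTPase of lymphocytes, read 171, 61.0 and 141 on TCR DP and 589, 569 and 862 on TCR SP arrays. Signals of TCR:HEL mice were 137, 95.6 and 101 on DP and 202, 203 and 208 on SP arrays. All TCR SP arrays lay above all others, and the interaction was -1.56 (SE 0.45). Slfn5 (-1.07), Als2cl (-1.02), Treml2 (-0.76), Tgfbr3 (-1.05) and the receptor gene Gpr18 (-0.99) were the other 5. In contrast Gpr183, a receptor for oxysterols that guides lymphocyte migration, rose by 1.35 in TCR and 2.57 in TCR:HEL mice (interaction 1.22), and P2rx7, an ATP-gated channel, had 1.19. With the SP arrays of period 1 and of period 3 the list's median was -0.47 and -0.59.

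Outside the lists, Rflnb, which binds filamin, rose by 2.52 in TCR mice, from 79.1, 122 and 85.9 on DP to 649.9, 609 and 589 on SP arrays. Its TCR:HEL signals were 150.3, 30.7 and 152 and 122, 63.7 and 102, with overlap and a change of 0.00. The interaction was -2.52 (SE 0.60), but a second probe set gave 1.08. Pde3b, which degrades cyclic AMP, rose by 1.43 in TCR mice, with SP signals of 5829.7, 3939 and 5063 against 2138, 2107 and 2194 in TCR:HEL mice, and had an interaction of -1.18 (SE 0.38). Pyroxd2 had -1.67 at signals of 4.12 to 96.6, with -1.14 and -0.32 on its other probe sets, and Ncoa2, a coactivator of nuclear receptors, -1.61, with -0.42 and -0.04.

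Strengthened falls comprised 55 probe sets, 12 of them at an unadjusted p under 0.05. Pxylp1, a phosphatase in the assembly of glycosaminoglycans, read 462, 541 and 525 on DP and 104, 223 and 131 on SP arrays of TCR:HEL mice. In TCR mice it read 373, 386 and 453 and 414, 339 and 361, with overlap. It fell by 1.70 in TCR:HEL mice and the interaction was -1.58 (SE 0.36), with -1.32 on a second probe set and 0.27 on a dim one. Kdsr, an enzyme of sphingolipid synthesis, had -1.70, but 0.59 and -0.13 on other probe sets that lay above the array median on all 12 arrays. Slc16a5, of the monocarboxylate transporter family, fell in both kinds of mouse with an interaction of -0.89, and a dim probe set gave 0.65. The genes that follow were in no class, since neither kind of mouse had a called stage change on the probe set named first. Their estimates there were rises in TCR and falls in TCR:HEL mice. Wdr4, a subunit of a tRNA methyltransferase, had -2.25, and 0.08 on a second probe set. Trp53bp1, a DNA repair factor, had -2.24 and -2.33 on dim probe sets, but 0.40 and -0.41 on those above the array median on all 12 arrays. Acss2, an acetyl-CoA synthetase, had -1.85. Rabepk, a Rab effector, had -1.33, and -0.01 on a second probe set.

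**Figure D4:**
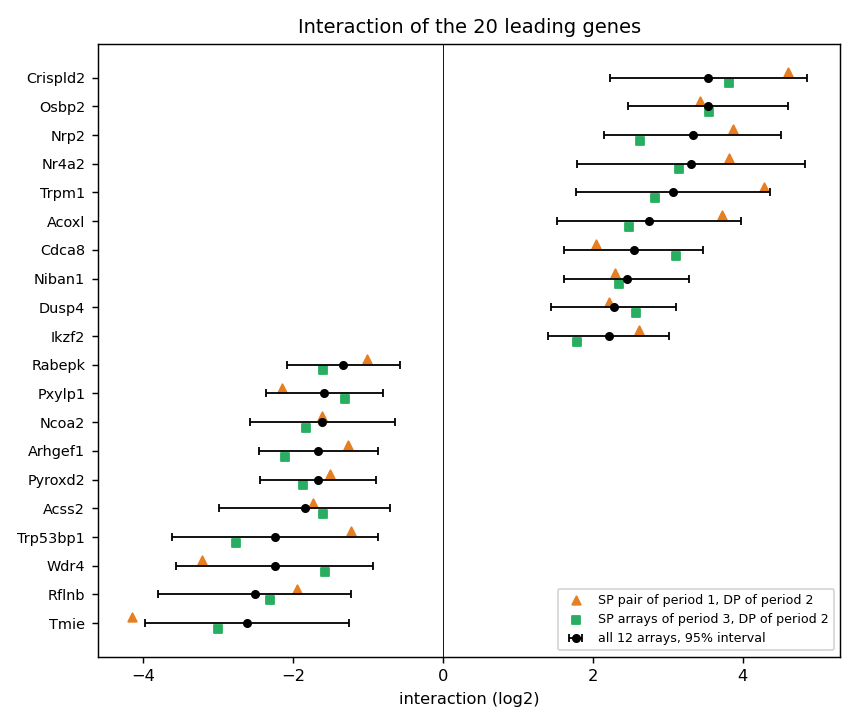
Interaction (x axis, log2) of the 10 genes with the smallest p in each direction, with the 95% interval from all 12 arrays (black). Triangles use the SP pair of period 1 and squares the SP arrays of period 3, both with the DP arrays of period 2. All triangles and squares lie on the same side of 0 as the value from all arrays. The genes were chosen on p from these same arrays, so the shared side is no independent check.

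CD4 lineage genes had a median interaction of -0.37, which was -0.54 to -0.09 with 1 array left out (-0.09 without TCR DP replicate 2), with 1 of 8 positive and 0 under an unadjusted p of 0.05. The repressor Bach2 rose with stage in both kinds of mouse and had -0.43, while another probe set of Bach2 gave 0.86. The NF-kB list had a median of 0.20 (10 of 14 positive) and interferon-stimulated genes 0.17 (10 of 16 positive), both with 0 under an unadjusted p of 0.05. With 1 array left out these medians were 0.029 to 0.36 and 0.062 to 0.35. That of the interferon-stimulated genes was 0.028 when a gene's probe sets were averaged. Of 48 listed pro-apoptotic genes 11 were measured, with a median of 0.07, and of 25 anti-apoptotic genes 7, with -0.01, and 0 of either were under that p. The survival gene Bcl2 read 1678, 1569.7 and 1063 on TCR SP and 1516, 1628 and 1559 on TCR:HEL SP arrays, with an interaction of 0.11 and a 95% interval of -0.73 to 0.95, while other probe sets of Bcl2 gave -0.29, -0.19 and 0.24. Medians were -0.02 for feedback regulators, although Dusp4 is among them, 0.00 for proximal receptor signalling, 0.13 for oxidative phosphorylation and 0.07 for cholesterol synthesis. These 4 medians and those of the apoptosis lists changed sign under at least 1 alternative.

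**Figure D5:**
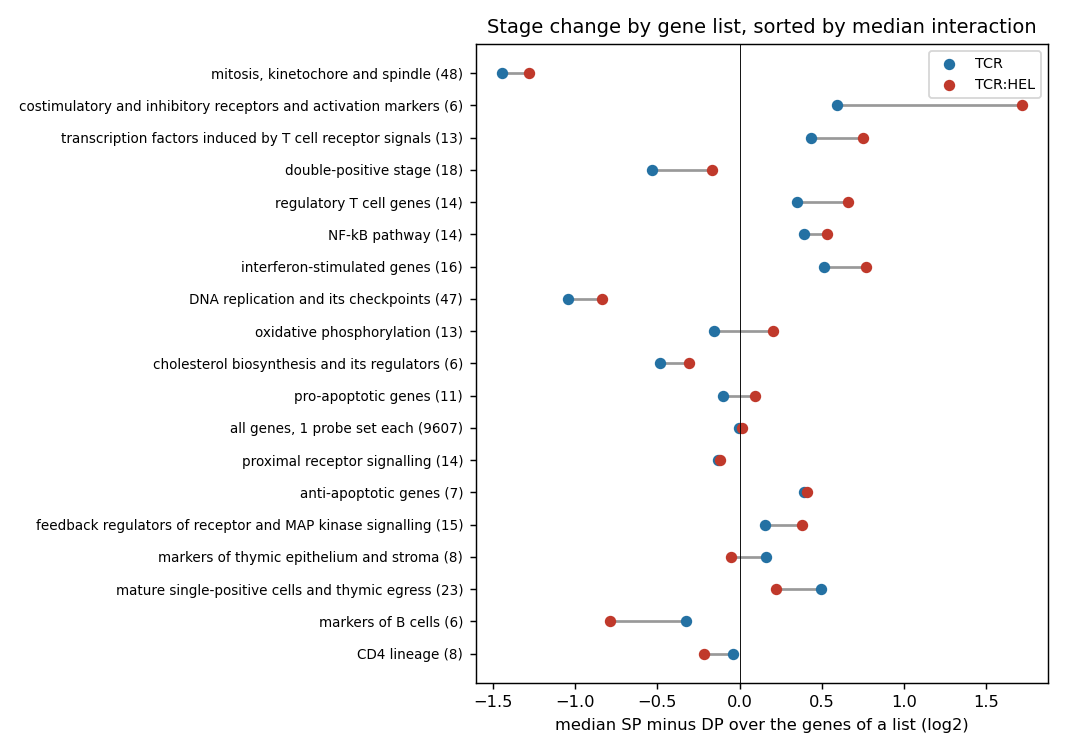
Median stage change, SP minus DP (x axis, log2), in TCR (blue) and TCR:HEL mice (red) for each gene list of 5 or more measured genes, with the number measured in parentheses. Lists are sorted by their median interaction, which is taken gene by gene and need not equal the distance between the points, with mitosis (0.71) at one end and CD4 lineage (-0.37) at the other. At a pseudocount of 64 mitosis (0.43) was below the costimulatory and inhibitory receptors (0.56), and CD4 lineage was -0.09 without TCR DP replicate 2.

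Markers of other cells gave signals in all 4 groups, but no detection calls were used to tell them from background. Of 18 listed B cell markers 6 were measured, with a summed signal of 588 to 920 on TCR DP and 1077 to 1762 on TCR:HEL DP arrays, without overlap, and of 499 to 666 and 613 to 887 on the SP arrays, with overlap. Their median interaction was -0.24, which changed sign without TCR:HEL SP replicate 3 (0.06), and H2-DMb2, which helps load peptide on class II molecules, had -2.04 on one probe set and -0.15 on another. The 8 measured markers of epithelium and stroma summed to 2491 to 4231 on TCR SP and 1590 to 2034 on TCR:HEL SP arrays. Epcam alone averaged 2749 and 1213 there, and the list's median antigen difference in SP cells was -0.06. On the TCR DP and TCR:HEL DP arrays the sums were 991 to 2513 and 1666 to 3426, with overlap. Of the 8, 4 had a positive and 4 a negative interaction, with a median of -0.07 (-0.77 to 0.07 over the alternatives). The lowest included Epcam at -1.55 (-0.96 without TCR DP replicate 3) and the matrix gene Dcn at -1.39. The 3 measured markers of dendritic cells and macrophages, Ccr2, Siglech and Zbtb46, summed to 343 to 596 on all arrays. The part of these cells in the interactions above was not tested. Markers of erythroid cells had no measured gene.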

How the data were processed

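RNA of sorted thymocytes was measured on 12 Affymetrix MOE430B arrays, with 3 biological replicates in each of 4 groups taken from the sample titles. Per the labels' protocols, RNA of 100000 to 1000000 cells was amplified and labelled with biotin, and per the submitters' processing notes the deposited table holds MAS5 values, with no version given. The deposited values are intensity values whose 2% trimmed mean was 150 on every array. Amplification and scaling to a common level can hide a change shared by all genes. Arrays hold no read depth, and their number limits the precision.

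The platform annotation gave 1 symbol to 14661 probe sets, several to 245 and none to 7605, and 2041 clone-type names were counted but not named. A model of 4 group means was fitted to log2(signal + 16) of all 22511 non-control probe sets with limma 3.58.1 in R 4.3.3, with empirical Bayes moderation and a trend (8 residual degrees of freedom and 6.29 of the prior). All p-values are two-sided and were corrected within each contrast by Benjamini and Hochberg's procedure over all probe sets. The code was tested on simulated data. Lists use 1 probe set per gene, that of the highest mean, and are described without a test. Members, lists and naming rules were chosen with earlier results of these data known. Genes above their own array median on at least 3 arrays were named by p. They were the 10 smallest in each direction or the 6 smallest per class of stage change and direction. Without that filter, the 3 smallest of a list, check genes and some further list members were named.

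Hybridization periods are parted by gaps of over 35 days, read from the deposited record files, with 30 days as an alternative. Within a period the antigen difference of SP cells was taken in period 1 or 3 and that of DP cells in period 2. Same-numbered arrays of the 2 SP groups deviated together (correlations of 0.12 to 0.15 in 3 of 3 pairs) and 2 of these pairs were hybridized on the same day, while the numbers did not pair the 4 groups as a whole. Alternatives were pseudocounts of 1 and 64, filters on 3 or 6 arrays, quantile normalization, no trend, array weights, replicate or period blocks, left-out arrays and averaging a gene's probe sets.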

Additional observations from a re-analysis of the deposited data

Results flagged for a closer look

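In 16 of the named genes every array of one group moved one way and every array of the other the opposite way, either the stage change in TCR against TCR:HEL mice or the antigen difference in DP against SP cells. No interaction of these passed the threshold, so the differences are not shown by a test. Many of the named genes were chosen on these same arrays by a small interaction p or by their class of stage change. Such a choice favours opposite differences, so the 16 are not to be read against the shares of all probe sets. Among all probe sets, 87 (0.386%) had opposite stage changes without overlap and 88 (0.391%) opposite antigen differences, 61 (0.271%) higher in SP and lower in DP cells and 27 (0.12%) the reverse.

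Stage changes were opposite for Dusp4 (2.28), Ikzf2 (2.21), Cd160 (1.79) and Acss2 (-1.85). Antigen differences were opposite for Acoxl (2.75), Cd8a (1.11), Pxylp1 (-1.58), Rabepk (-1.33), Ncoa2 (-1.61), the centriole gene Cep97 (-1.31), Ccno (-1.52) and Dcn (-1.39). Both were opposite for Osbp2 (3.53), Nrp2 (3.33), Arhgef1 (-1.66) and Ndufs4 (1.30), a subunit of respiratory complex I. All values are interactions on the log2 scale. Other probe sets of Cep97, above the array median on all 12 arrays, gave -0.30, -0.25 and -0.22. Their antigen differences were negative in both SP and DP cells. Ndufs4 read 162, 179 and 198 on TCR DP, 88.9, 80.4 and 78.7 on TCR SP, 114, 122 and 112 on TCR:HEL DP and 143, 137 and 169 on TCR:HEL SP arrays.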

How the results depend on the processing

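The interaction count of 0 became 1 with the filter on 3 arrays and without the trend (both Osbp2, 3.53) and with the 30-day period block (Rmi1, -3.04, adjusted p = 0.0181, a gene chosen after its values were seen). With 1 array left out it was 0 to 1, namely Crispld2 without TCR:HEL DP replicate 3 and Rmi1 without TCR DP replicate 1. In 22511 tests at 3 arrays a group, single interactions of modest size are not resolved. The 26 antigen calls in SP cells became 17 without the trend, 16 with array weights, and 0 without the arrays of period 1 or, in an alternative chosen after seeing the data, without the 3 arrays of lowest Gapdh ratio, where unadjusted counts were 1188 and 1166. With 1 array left out they were 14 to 27, with 14 without TCR SP replicate 3 or TCR:HEL SP replicate 2 or 3 and 16 without TCR:HEL SP replicate 1. Antigen calls in DP cells stayed at 0 in every alternative run. The 871 mean stage calls were 376 and 287 with the 35-day and 30-day period blocks. The 405 stage calls in TCR mice were 228 and 161 with these blocks and 253 without the 3 arrays of lowest Gapdh ratio, and 255 to 391 with 1 array left out, the lowest without TCR SP replicate 3. The 253 in TCR:HEL mice were 141 and 136 with the blocks, 164 without period 1 and 141 without the 3 arrays, and 96 to 269 with 1 array left out, with 149 and 125 without TCR:HEL SP replicates 1 and 3, and 96 and 138 without TCR:HEL DP replicates 2 and 3. The share of smaller rises in TCR:HEL mice was 45.1% and 47.0% with the period blocks, 58.6% without the 3 arrays and 41.5% to 57.8% with 1 array left out. The share of smaller falls was 66.6% to 77.5% with 1 array left out.

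Across the 4 groups the replicate numbers did not pair the arrays, with 8 of 18 correlations of same-numbered deviations over 0.1 (range -0.08 to 0.21), but they paired the 2 SP groups. With the replicate block there were 0 interaction, 508 TCR, 306 TCR:HEL, 1045 mean stage and 25 antigen SP calls. With the block on the SP arrays alone, an alternative chosen after seeing the data, there were 30 antigen SP calls, 21 of them among the 26.

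Of 2213 values of 93 probe sets under 24 alternatives 2193 kept their direction and side of the threshold, 3 passed it, and 17 turned sign. These were Bcl2 without 1 array (-0.09, -0.08 and -0.15, range -0.15 to 0.28), Dtx1 without TCR SP replicate 3 (0.0044, range -1.07 to 0.0044), Pax5 without period 1 (-0.13), the 3 arrays (-0.16) or TCR SP replicate 1 (-0.37, range without 1 array -0.37 to 1.02), and Zbtb46 with quantile normalization (0.023), array weights (0.034), without period 1 (0.12), without the 3 arrays (0.13) or without 1 array (range -0.16 to 0.18). With 1 array left out the interaction of 38 of the 93 moved by over 1.5 times at least once. The cause of these changes was not tested, apart from the fewer arrays or tests that an alternative leaves. The median of the mitosis list stayed between 0.43 and 0.91, that of receptor-induced factors between 0.36 and 0.81 and that of egress genes between -0.55 and -0.07.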
